A study of Mus musculus with 6 samples.

Results

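Transcript abundance was examined for 10 genes whose brain transcripts carry known recoding sites for A-to-I RNA editing, namely Gria2, Gria3, Gria4, Grik2, Htr2c, Gabra3, Kcna1, Cyfip2, Blcap and Flna. They were picked by symbol, and all 10 were found among the 37310 genes of the deposited count table. The libraries were made from whole brain of male C57BL/6 mice aged 12 weeks. One genotype was Adar1 E861A/E861A Ifih1-/-, homozygous for a germline point mutation that abolishes the editing activity of ADAR1, and the other was Adar1+/+ Ifih1-/-, with 3 libraries of each. Both genotypes were thus null in every cell for MDA5, a sensor of double-stranded RNA that is the product of Ifih1, and no Cre or transgene was involved. The gene counts hold no information on single bases, so editing levels were not analysed here, and the point mutation itself cannot be checked from them.

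A-to-I editing deaminates adenosine to inosine within double-stranded RNA, and the ribosome reads inosine as guanosine. Where the edited adenosine lies in a coding exon, the codon can specify another amino acid, which is called recoding. In brain, recoding is best known in receptors and channels that set the speed and ion selectivity of synaptic transmission. Many recoding sites, among them the Q/R site of Gria2, are edited mainly by ADAR2, the product of Adarb1. Others depend on ADAR1, and the authors name sites in Blcap and Htr2c among these. The labels give no change in Adarb1 for either genotype. The pairing partner that makes the RNA double stranded often lies in a neighbouring intron.

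The recoding sites that give these genes their interest are shown here as 29-base windows of the reference genome (NCBIM37), 5′ to 3′ on the transcribed strand, with each edited adenosine in capitals. A set of 19 known sites was placed in the 10 genes, all in coding exons. The first pair lies in the pore loop of an AMPA and a kainate receptor subunit, where editing changes a CAG codon to CGG, read as arginine in place of glutamine.
Gria2 Q/R, chr3:80510820-80510848, minus strand: gggtgcctttatgcAgcaaggatgcgata
Grik2 Q/R, chr10:48964122-48964150, minus strand: tggagctctcatgcAgcaaggtatacgat
The R/G sites of the 3 AMPA receptor subunits change AGA to GGA. In the transcript with the longest coding sequence, the edited base is 1 base from the 3′ edge of its exon in each. The window there runs into the intron. For Gria3, annotated exons of the gene as a whole cover the full window.
Gria2 R/G, chr3:80496194-80496222, minus strand: aaggatcctcattaAggtgggtggaatag
Gria3 R/G, chrX:39007415-39007443, plus strand: aaggctcagcattaAggtgggtggaataa
Gria4 R/G, chr9:4455992-4456020, minus strand: agggttcctcattaAggtgggtggaatag
Of 29 bases, 27 were identical between Gria2 and Gria4, 25 between Gria2 and Gria3 and 24 between Gria3 and Gria4. The serotonin receptor gene Htr2c has 5 edited adenosines in a single window, and 2 of the 3 Blcap sites also share one.
Htr2c sites A, B, E, C and D in that order, chrX:143604221-143604249, plus strand: atgtagcaAtAcgtAAtcctAttgagcat
Blcap Y/C and Q/R, chr2:157383862-157383890, minus strand: catgtAttgcctccAgtggctgctgcccg
The other four genes have 1 site each, in a GABA-A receptor subunit, a potassium channel, an actin regulator and an actin cross-linker. The Flna site is again 1 base from the 3′ edge of its exon.
Gabra3 I/M, chrX:69690617-69690645, minus strand: atggactggttcatAgccgtctgttatgc
Kcna1 I/V, chr6:126592162-126592190, minus strand: ctggtgtgctgacaAttgccctgcccgta
Cyfip2 K/E, chr11:46086131-46086159, minus strand: tggccagatacattAagaccagtgctcac
Flna Q/R, chrX:71472187-71472215, minus strand: tgtttctagtcttcAggtgaggcactgag

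Several features were shared across the sites. The base just 5′ of the edited adenosine was G in 0 of 19 sites, whereas 27.7% of the 7140 adenosines in the coding sequences of these genes follow a G. The base just 3′ was G in 9 of 19 sites (47.4%), against 28.9% of those adenosines. The sites of 1 gene can overlap in sequence and are not independent, so these shares are a description. Of the 10 genes, 4 lie on chromosome X (Gria3, Htr2c, Gabra3 and Flna).

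Each window was searched against the 2500 bases on either side for the best gap-free antiparallel partner, counting Watson-Crick and G-U pairs. For 3 sites the best partner exceeded the next by 3 or more pairs. The Gria2 Q/R window paired at 24 of 29 bases, 7 of them G-U, with an intronic stretch centred 319 bases downstream, where capitals mark the paired bases.
Gria2 Q/R partner, chr3:80510501-80510529, minus strand: TAcCGTGTTTTTGCTGCATAttctCATTT
The Blcap Y/C window paired at 27 of 29 bases with an intronic stretch centred 497 bases upstream.
Blcap Y/C partner, chr2:157384368-157384396, minus strand: GCCcCaGGAGGCGATACATGATCTCTGCT
The Blcap Q/R window paired at 26 of 29 bases with an overlapping stretch. The other 16 sites had best partners of 19 to 22 pairs, at most 1 pair above the next best, so no single partner stood out in a search without gaps.

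The abundance of the 10 transcripts differed little between genotypes. Levels are given as CPM, the counts per 1000000 counted reads of a library. All 10 reached 2 CPM in every library, which passed the expression filter, with 1399 to 28754 counts per gene and library. At an adjusted p under 0.05 by the quasi-likelihood test of edgeR, 0 of the 10 passed, where 0.506% of all 13649 tested genes did and are referred to as called. DESeq2 (0.601% of genes called), edgeR's likelihood ratio test (1.02%) and limma-voom (0.498%) also called 0 of the 10. With the replicate number as a block, which raised the calls over all genes from 69 to 158 (1.16%), the count among the 10 was again 0. At an unadjusted p under 0.05 there was 1 of the 10, Grik2, where 9.01% of tested genes reached this level, and 3 with the block (Grik2, Gria2 and Kcna1), where 15.2% did. Estimates were above 0 for 5 genes and below 0 for 5, and their median log2 fold change was 0.0057, beside -0.0010 over all tested genes. Between genotypes, CPM did not overlap for 1 of the 10, Kcna1, and for 13.8% of tested genes. This count depended on scaling. With CPM scaled by TMM factors, as in the fit, 4 of the 10 did not overlap, where 14.2% of tested genes did not. Of these, Gria2 and Grik2 were higher in E861A/E861A (7.51% of tested genes) and Kcna1 and Blcap lower (6.66%).

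The 95% intervals bound how large a difference these libraries leave room for. Over the 10 genes they reached from a fold of 0.849, the lower bound for Htr2c, to a fold of 1.21, the upper bound for Grik2. The interval contained a fold of 1 for 9 of the 10. These intervals apply to 1 gene at a time and are not adjusted for the number of genes. The median standard error was 0.049 on the log2 scale for the 10 genes and 0.068 for all tested genes.

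**Figure D1:**
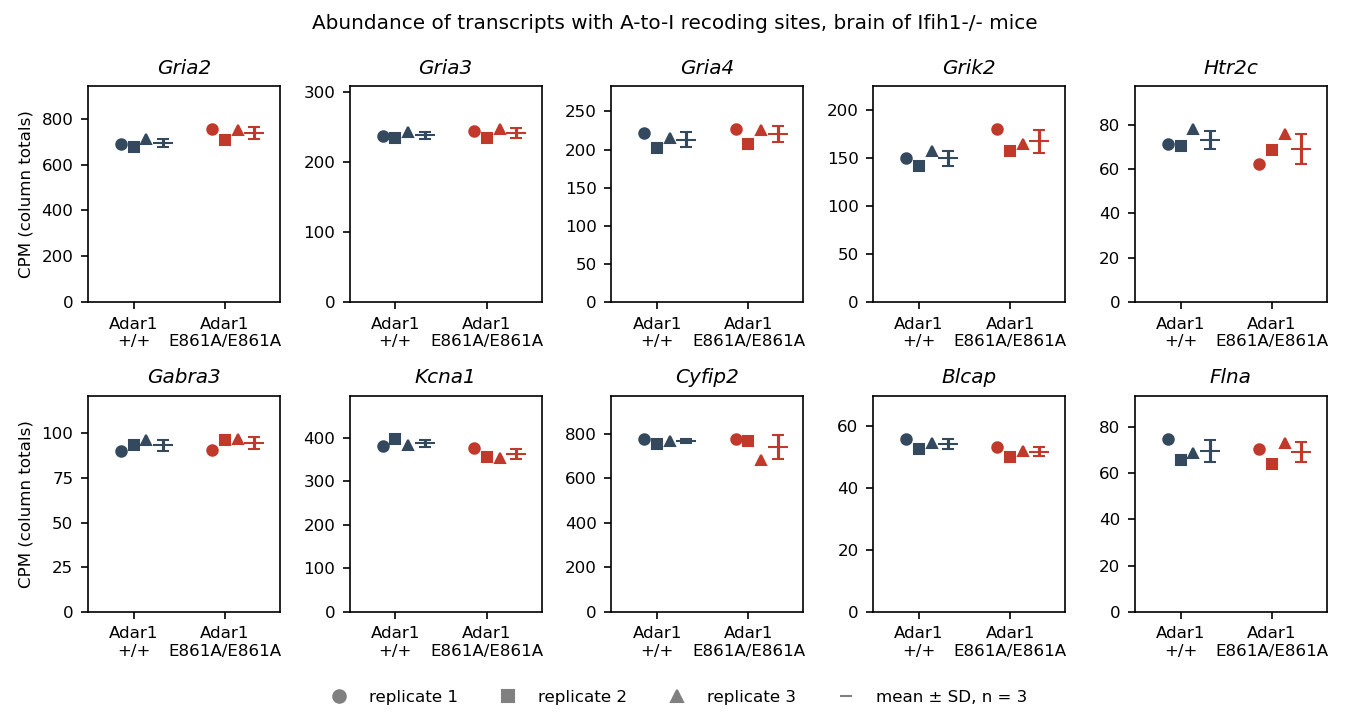
Abundance of the 10 transcripts in CPM from column totals, with 1 panel per gene and an axis from 0. Points are the 3 libraries of each Adar1 genotype (circle, square and triangle for replicates 1, 2 and 3), and bars are mean ± SD. On this scale only for Kcna1 are the genotypes apart, at 354 to 377 CPM in Adar1 E861A/E861A and 381 to 397 CPM in Adar1+/+.

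The AMPA receptor subunits carry most fast excitatory transmission, and the GluA2 subunit encoded by Gria2 makes the channel impermeable to calcium once its Q/R site is edited. Gria2 (ENSMUSG00000033981, chr3:80488858-80606713) had 755, 709 and 751 CPM in Adar1 E861A/E861A replicates 1 to 3 and 689, 677 and 713 CPM in Adar1+/+ replicates 1 to 3. The E861A/E861A library was the higher in 3 of 3 same-numbered pairs, but its lowest value lay below the highest Adar1+/+ value. With TMM scaling the groups separated narrowly, at 717 to 759 CPM against 681 to 711 CPM. The log2 fold change was 0.09 ± 0.05 (SE), with an adjusted p of 0.579 by edgeR. Gria4 and Gabra3, with smaller estimates, were also higher in E861A/E861A in 3 of 3 same-numbered pairs. How many of all tested genes had such pairs was not counted.

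Gria3 and Gria4 encode further AMPA receptor subunits whose R/G sites affect recovery from desensitization. Gria3 (ENSMUSG00000001986, chrX:38754031-39031778) had 244, 233 and 246 CPM against 236, 234 and 243 CPM. Its log2 fold change of 0.02 ± 0.04 had an adjusted p of 0.899. Gria4 (ENSMUSG00000025892, chr9:4417899-4796234) had 227, 208 and 226 CPM against 222, 202 and 215 CPM. Both genotypes showed the same low replicate 2, and the log2 fold change was 0.05 ± 0.05 with an adjusted p of 0.800. With 1 library left out the estimates ranged from 0.0016 to 0.04 for Gria3 and from 0.02 to 0.08 for Gria4.

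An annotated miRNA locus lies over the R/G hairpin in each of these AMPA receptor genes and shares 29 exonic bases with Gria2, 91 with Gria3 and 16 with Gria4. The aligner's gene counter leaves out reads that fall on 2 genes, so reads over those bases are missing from the counts of these genes. The locus in Gria2 had 1.63 to 2.87 CPM in Adar1 E861A/E861A and 2.42 to 2.66 CPM in Adar1+/+. The locus in Gria4 had 0.441 to 0.931 CPM and 0.553 to 0.616 CPM. The locus in Gria3 lies wholly within annotated Gria3 exons. Its 0 counts in all 6 libraries thus follow from the counting rule and do not measure its level. Neither of the loci with counts separated the genotypes.

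Grik2 encodes the kainate receptor subunit GluK2, which has an I/V, a Y/C and a Q/R site. Grik2 (ENSMUSG00000056073, chr10:48819266-49508572) had 180.4, 157.3 and 165 CPM in Adar1 E861A/E861A and 150.2, 142 and 158 CPM in Adar1+/+. Grik2 was the higher in E861A/E861A in 3 of 3 same-numbered pairs, with an overlap of E861A/E861A replicate 2 and Adar1+/+ replicate 3 that TMM scaling removed (159.1 to 177 CPM against 144 to 157.1 CPM). Its estimate was the largest in size of the 10 genes, a log2 fold change of 0.16 ± 0.05 (95% interval 0.05 to 0.27), a fold of 1.12. The unadjusted p of 0.00736 ranked 294 among 13649 genes, and the adjusted p was 0.339. An exact two-sided permutation test of the CPM gave p = 0.2, and p = 0.1, the smallest possible, with TMM scaling. Without E861A/E861A replicate 1, its highest library, the log2 fold change was 0.12 ± 0.05. That library held far more pituitary transcripts than the rest, with 439 summed CPM of 5 pituitary markers against 1.30 to 3.31 CPM in the other five libraries, and their part in the Grik2 value was not tested.

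Htr2c encodes the serotonin 5-HT2C receptor, a Gq-coupled receptor whose coupling is reduced by editing of its second intracellular loop, and which is abundant in choroid plexus epithelium. Htr2c (ENSMUSG00000041380, chrX:143397056-143631820) had 62.4, 68.9 and 76.0 CPM in Adar1 E861A/E861A and 71.4, 70.3 and 78.1 CPM in Adar1+/+. It was the lower in E861A/E861A in 3 of 3 same-numbered pairs, and the genotypes overlapped. The log2 fold change was -0.08 ± 0.07 with an adjusted p of 0.766, and it was -0.0050 ± 0.06 without E861A/E861A replicate 1 and -0.16 ± 0.07 without replicate 3 (unadjusted p 0.0383, adjusted p 0.892). Of 8 choroid plexus markers, 6 had estimates below 0, and 0 were called without the replicate block and 1 with it (Ttr, log2 fold change -0.51, adjusted p 0.124 without the block and 0.0241 with it). Their summed level was 232 to 341 CPM in E861A/E861A, lowest in replicate 1, and 398 to 421 CPM in Adar1+/+, mostly from Ttr, and no marker was at 0. The part of choroid plexus content in the Htr2c value was not tested. In whole tissue, fewer cells of a type and less RNA per cell cannot be told apart.

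Gabra3 encodes the alpha3 subunit of the GABA-A receptor, the main inhibitory ligand-gated channel, with an I/M site in a membrane-spanning segment. Gabra3 (ENSMUSG00000031343, chrX:69678020-69902187) had 90.9, 96.1 and 96.9 CPM in Adar1 E861A/E861A and 90.3, 93.4 and 96.1 CPM in Adar1+/+. The values of same-numbered libraries differed by less than the spread within a genotype. The log2 fold change was 0.02 ± 0.05 with an adjusted p of 0.928, and it was below 0 without E861A/E861A replicate 3 (-0.0016) or Adar1+/+ replicate 1 (-0.0075).

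Kcna1 encodes Kv1.1, a voltage-gated potassium channel in which editing of a pore-lining isoleucine speeds recovery from inactivation. Kcna1 (ENSMUSG00000047976, chr6:126586481-126595819) had 377, 356 and 354 CPM in Adar1 E861A/E861A and 381, 397 and 383 CPM in Adar1+/+. Every E861A/E861A library was below every Adar1+/+ library, with column-total and with TMM scaling. On column totals, 6.81% of tested genes were lower and 6.98% higher without overlap. The exact two-sided permutation test gave p = 0.1, the smallest the design allows. The log2 fold change was -0.09 ± 0.04 (95% interval -0.19 to 0.0009) with an adjusted p of 0.556.

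Cyfip2 and Flna act on the actin cytoskeleton, Cyfip2 as a subunit of the WAVE regulatory complex and Flna, filamin A, as an actin cross-linker. Cyfip2 (ENSMUSG00000020340, chr11:46007357-46125852) had 774, 767 and 679 CPM in Adar1 E861A/E861A and 775, 755 and 766 CPM in Adar1+/+. The lower mean in E861A/E861A came from replicate 3, without which the log2 fold change went from -0.05 ± 0.05 (adjusted p 0.820) to 0.0036. The exons of Cyfip2 share 906 bases with C030019I05Rik on the opposite strand, and the strand setting of the counts was not given in the sources used here, so its count is uncertain to that extent.

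Flna (ENSMUSG00000031328, chrX:71468800-71495159) had 70.3, 64.0 and 72.7 CPM in Adar1 E861A/E861A and 74.6, 65.6 and 68.5 CPM in Adar1+/+. Replicate 2 was the lowest in both genotypes, and the log2 fold change was -0.01 ± 0.06 with an adjusted p of 0.975. It was 0.03 without E861A/E861A replicate 2 and 0.04 without Adar1+/+ replicate 1. Flna is expressed in vessel walls and fibroblasts as well as in neural cells. Estimates were below 0 for 6 of 6 endothelial markers and 5 of 5 tested mural and smooth muscle markers. None was called without the replicate block, and with it only Rgs5 was, a mural marker (log2 fold change -0.43, adjusted p 0.0717 without the block and 0.0401 with it). Summed endothelial markers were at 82.4 to 106 CPM in E861A/E861A and 110.5 to 132 CPM in Adar1+/+. Summed mural and smooth muscle markers were at 84.8 to 95.3 CPM and 103 to 136 CPM. Of 5 meningeal fibroblast markers, 2 were higher in E861A/E861A (Col1a2 and Col3a1, adjusted p 0.0199 and 0.0316), and their sum was at 76.4 to 91.8 CPM against 54.9 to 65.8 CPM. None of these markers was at 0, and their part in the Flna value was not tested.

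Blcap encodes a small conserved membrane protein, and its Y/C and Q/R windows had complementary intronic stretches in the sequence search above. Pairing of the RNA itself was not tested. Blcap (ENSMUSG00000067787, chr2:157382098-157397010) had 53.1, 50.1 and 52.1 CPM in Adar1 E861A/E861A and 55.8, 52.5 and 54.6 CPM in Adar1+/+. It was lower in E861A/E861A in 3 of 3 same-numbered pairs, with ranges that overlapped on column totals and were apart with TMM scaling (50.7 to 52.6 CPM against 53.3 to 55.1 CPM). The log2 fold change was -0.07 ± 0.05 with an adjusted p of 0.705. Nnat, which encodes neuronatin, lies within a Blcap intron on the opposite strand and shares no exonic base with it. Nnat had 86.1, 86.4 and 77.0 CPM against 62.3, 85.4 and 67.2 CPM, a log2 fold change of 0.21 ± 0.10 with an unadjusted p of 0.0427 and an adjusted p of 0.547. Leaving out Adar1+/+ replicate 2, the library of that genotype nearest to E861A/E861A, gave 0.37 ± 0.06 with an adjusted p of 0.00566, and in the other five omissions Nnat was not called.

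**Figure D2:**
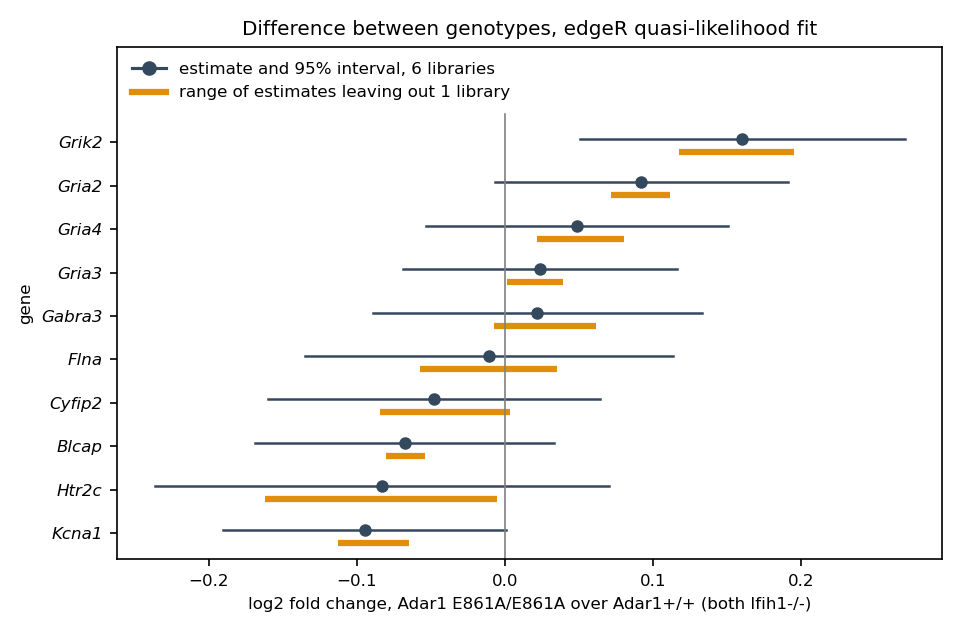
Log2 fold change of each transcript, Adar1 E861A/E861A over Adar1+/+, from edgeR's quasi-likelihood fit. Points and thin lines are estimates with 95% intervals from 6 libraries, and thick bars span the estimates obtained by leaving out 1 library at a time. The interval of Grik2 (0.05 to 0.27) lies above 0, and the thick bars of Gabra3, Flna and Cyfip2 cross 0.

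Levels between genes were compared per length, as CPM per kilobase of annotated exon (RPKM). In Adar1+/+ brain the order was Gria2 (99.6 RPKM), Cyfip2 (91.5), Kcna1 (43.2), Gria4 (34.0), Gria3 (24.1), Gabra3 (23.8), Grik2 (18.1), Blcap (17.8), Htr2c (7.86) and Flna (7.40 RPKM). Over all 6 libraries the ranges of Gria3 and Gabra3, of Grik2 and Blcap, and of Htr2c and Flna overlapped, and the other neighbours in the order were apart. Annotated exon length includes exons that brain may not use, so these levels are approximate.

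The recoded transcripts examined above were then set against their gene families. The share of a subunit pool that can carry an edited site depends on the other subunits. Shares were computed in each library from counts per exon length. Gria2 made up 45.2% ± 1.0 (SD, n = 3) of AMPA receptor subunit transcripts in Adar1 E861A/E861A and 44.0% ± 0.56 in Adar1+/+. Gria3 made up 10.4% ± 0.21 and 10.6% ± 0.071, and Gria4 14.3% to 15.4% and 14.4% to 15.7% over the libraries, the rest being Gria1. The composition of the AMPA receptor pool thus moved by at most 1.17 percentage points for Gria2, Gria3 and Gria4, and the genotypes overlapped for each.

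Grik2 was 28.8% ± 1.3 (SD, n = 3) of kainate receptor subunit transcripts in Adar1 E861A/E861A and 26.3% ± 1.2 in Adar1+/+, a difference of 2.57 percentage points with overlapping ranges. Per exon length Grik5 was the most abundant of the family, at 41.0% ± 0.84 and 43.0% ± 1.3. It encodes a subunit that works only in assembly with others such as GluK2. In raw counts Grik2 was instead the most abundant, at 40.1% and 37.1%, with Grik5 at 26.4% and 28.1%. The order of these subunits thus depended on annotated exon length. Grik1, listed among other transcripts known to be recoded, was at 9.98% in Adar1 E861A/E861A and 9.95% in Adar1+/+ per exon length. The Grik2 share is thus not the full share of this pool that can carry an edited site. Kcna1 made up 36.0% ± 0.56 and 37.1% ± 0.92 of the transcripts of Kcna1 to Kcna6, where Kcna2 was at 35.6% ± 0.56 and 35.5% ± 0.97. This near parity also depended on exon length. In raw counts Kcna1 was at 56.3% and 57.5% and Kcna2 at 21.5% and 21.2%. The separation of the genotypes seen for Kcna1 in CPM was not present in its share, which overlapped.

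Htr2c was 48.7% ± 3.1 (SD, n = 3) of 5-HT2 receptor transcripts in Adar1 E861A/E861A and 49.3% ± 0.43 in Adar1+/+. In raw counts, without division by exon length, its share was 76.1% and 76.4%. Cyfip2 was 90.3% ± 0.95 and 90.7% ± 0.34 of the Cyfip pair. The share differences of Htr2c, Cyfip2 and Gria4 turned sign with 1 library left out. Of the 9 shares tested, 1 did not overlap between genotypes (exact two-sided permutation p = 0.1, the smallest possible) and is among those whose values are not reported here. Over the 9, exact two-sided permutation p-values adjusted by the Benjamini-Hochberg method were 0.54 to 0.90. Flnc, a scarce filamin, had a log2 fold change of 0.21 ± 0.12 (adjusted p 0.643).

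**Figure D3:**
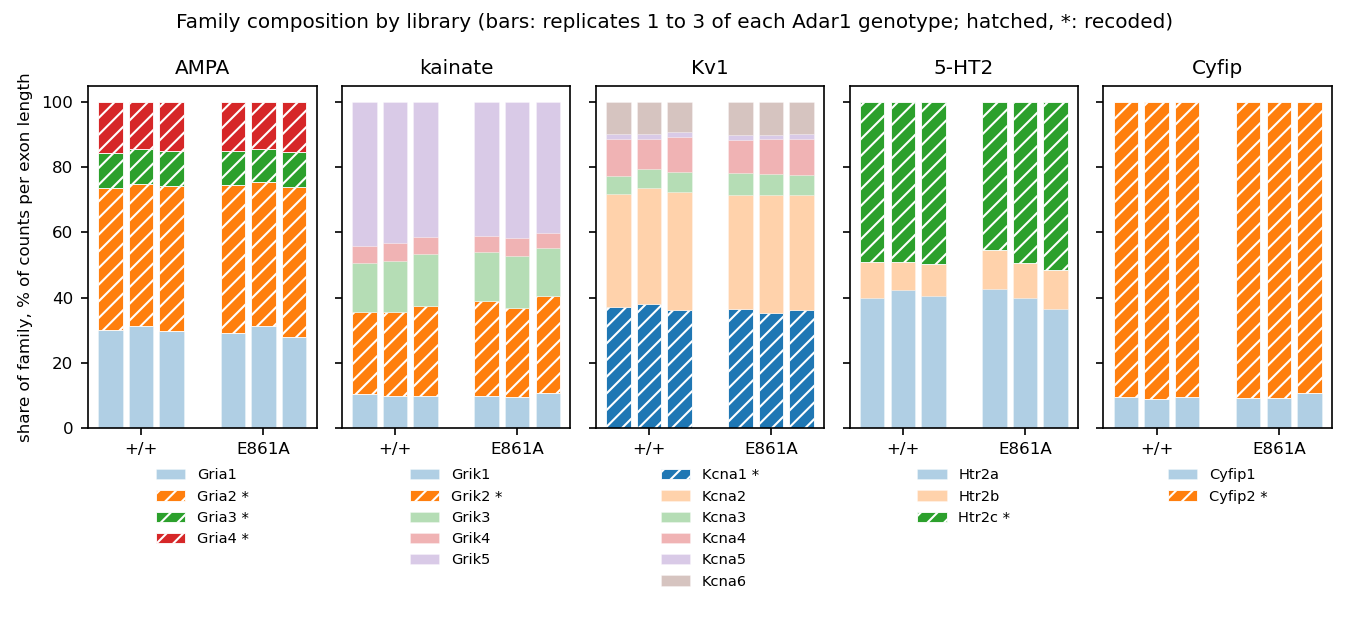
Composition of 5 gene families in each library, as the percentage of counts per exon length. Each bar is 1 library, the first 3 being Adar1+/+ and the last 3 Adar1 E861A/E861A. Hatching and stars mark only the recoded transcripts named at the start of the Results. Grik1, listed among other transcripts known to be recoded, is not marked. Gria2 is 43.6% to 46.0% of the AMPA receptor subunits and Cyfip2 89.2% to 91.1% of its pair across the 6 libraries.

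Genes that act with the recoded transcripts were read from 10 lists of receptor partners, channel subunits, complex members and editing factors. Of 89 listed genes other than the 10 above, 86 were tested and 0 were called by the same test. At an unadjusted p under 0.05 there were 6 (6.98%), near the 9.01% of all tested genes. Their median log2 fold change was -0.0066, with 39 above 0 and 47 below. The list medians lay between -0.031 and 0.072, beside -0.0010 for all tested genes.

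Among the AMPA receptor partners, which include the TARP, cornichon and Shisa auxiliary subunits, 0 of 17 were called, and the smallest unadjusted p was that of Cacng2, which encodes stargazin (log2 fold change -0.09 ± 0.05, adjusted p 0.640). For the kainate receptor list, 0 of 6 were called. Neto2, an auxiliary subunit of kainate receptors, had the smallest unadjusted p of that list (0.09 ± 0.05 on the log2 scale, adjusted p 0.625), and the subunits Grik1, Grik3, Grik4 and Grik5 ranged from -0.06 to 0.03. Of 9 genes of 5-HT2 receptors and their signalling, 0 were called, with Htr2a at -0.11 ± 0.07 (adjusted p 0.640) and Htr2b at 0.15 ± 0.13 (adjusted p 0.766). In the list of GABA-A receptor alpha subunits, Gabra2, Gabra4, Gabra5 and Gabra6 ranged from -0.04 to 0.04, with 0 called and the smallest unadjusted p, 0.497, for Gabra2.

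Kcnab3, which encodes a cytoplasmic beta subunit of Kv1 channels, was the gene of the Kv1 list closest to a call. It had 23.9, 22.7 and 22.5 CPM in Adar1 E861A/E861A and 32.3, 25.3 and 28.5 CPM in Adar1+/+, and the genotypes did not overlap. The log2 fold change was -0.32 ± 0.07 with an adjusted p of 0.106, and with the replicate number as a block it was -0.31 ± 0.06 with an adjusted p of 0.0278. The other two beta subunits had log2 fold changes of 0.08 ± 0.05 (Kcnab1) and -0.08 ± 0.06 (Kcnab2), and Kcna2, Kcna3, Kcna4 and Kcna6 ranged from -0.05 to 0.07. Kcna5, scarce at 4.54 and 5.21 mean CPM, had -0.20 ± 0.11 with an adjusted p of 0.614.

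In the WAVE complex list 0 of 11 were called, with Cyfip1 at 0.03 ± 0.05 and the smallest unadjusted p for Wasf2 (-0.14 ± 0.06, adjusted p 0.539). In the filamin list 0 of 5 tested genes were called, and Fam101a, which encodes a filamin regulator and was scarce at 2.32 and 1.85 mean CPM, had the smallest unadjusted p (0.32 ± 0.14, adjusted p 0.538). Among other transcripts known to be recoded, 0 of 14 were called. Igfbp7 had the lowest estimate and the smallest unadjusted p (-0.39 ± 0.13, adjusted p 0.379), with 4.30, 5.59 and 3.98 CPM against 6.41, 5.99 and 5.97 CPM. It was called only without E861A/E861A replicate 2 (-0.57 ± 0.12, adjusted p 0.0455).

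The deaminases themselves were called in neither direction. Adarb1 had 272, 273 and 262 CPM in Adar1 E861A/E861A and 274, 272 and 280.0 CPM in Adar1+/+, so its transcript level overlapped between genotypes. Adar had 169, 164 and 151 CPM against 116, 172 and 163 CPM, with Adar1+/+ replicate 1 the low library. Adarb2, which encodes the brain-specific ADAR3 with no known catalytic activity, had a log2 fold change of 0.11 ± 0.06 and an adjusted p of 0.633. Of 9 tested deaminases and regulators 0 were called.

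**Figure D4:**
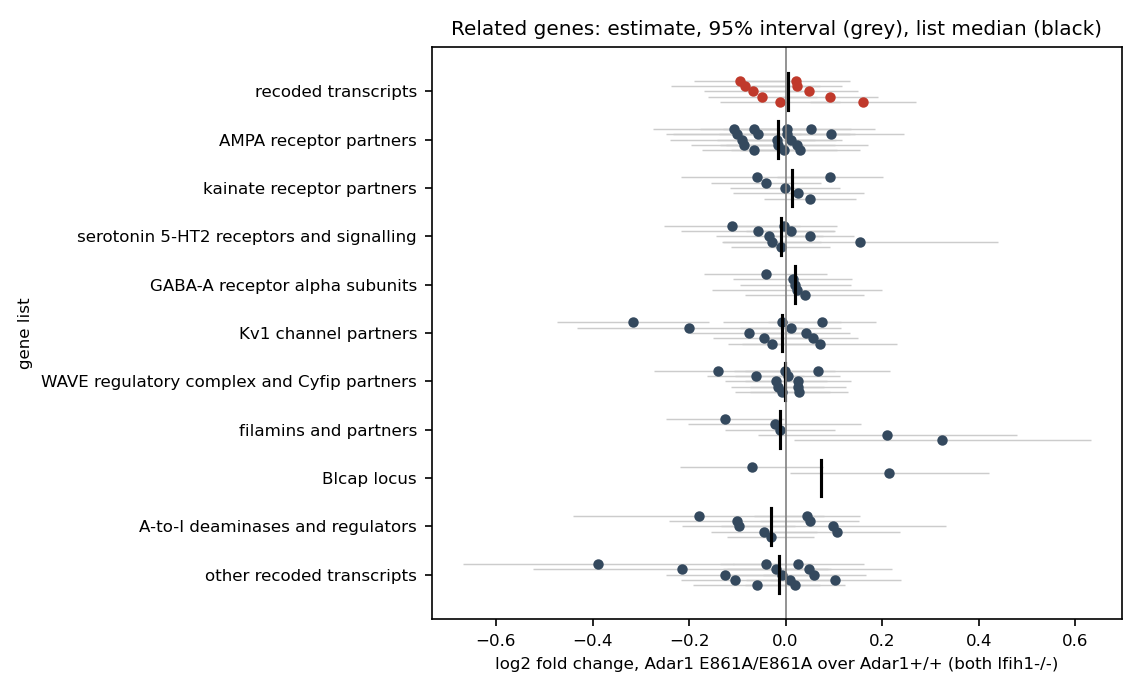
Log2 fold change, Adar1 E861A/E861A over Adar1+/+, for the 10 recoded transcripts (red) and for the tested genes of 10 related lists (dark). Grey lines are 95% intervals and black bars are list medians. The medians lie between -0.031 and 0.072, and Kcnab3 (-0.32) and Igfbp7 (-0.39) are the lowest points.

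The libraries were brain by their markers, but E861A/E861A replicate 1 also held 439 summed CPM of 5 pituitary markers. The other libraries held 1.30 to 3.31 CPM of these markers. The part of pituitary transcripts in the values above was not tested. The 9 neuronal markers summed to 4201 to 4326 CPM in Adar1 E861A/E861A and 4351 to 4431 CPM in Adar1+/+, with 8 of 9 estimates below 0 and 0 called, and their part in the values above was not tested. Totals were 26853488 to 36285305 counts in E861A/E861A and 35702138 to 38076753 in Adar1+/+. The labels do not say whether same-numbered libraries shared a litter or a day.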

How the data were processed

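Gene counts were deposited as raw counts per gene and library, made by the authors with Trimmomatic 0.36 and STAR 2.5.2a on NCBIM37/mm9 from ribosome-depleted, stranded total RNA libraries. The strand column used is not given in the sources used here. The authors also deposited CPM values, scaled over 13891 retained genes and given in 2 identical files, and a table of their own fold changes and false discovery rates, which was not used. CPM values above were computed from column totals.

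Genotypes were compared with edgeR 4.0.16 in R 4.3.3 (TMM scaling, quasi-likelihood test, Benjamini-Hochberg adjustment over 13649 genes), on genes that reached a CPM of 2 in all 3 libraries of 1 genotype or both. Calls required an adjusted p under 0.05. No covariate was used. Deviations from genotype means correlated between same-numbered libraries (r = 0.221, 0.329 and 0.112), so a replicate block was an alternative, where the numbers come from the sample titles. The source of the pairing is not stated, and the p-values measure the spread among these 3 mice per genotype. Alternatives were other scalings, filters and tests (DESeq2 1.42.0, limma 3.58.1) and the omission of each library. TMM-scaled CPM ranges were added after the data were seen. Exact permutation tests were two-sided. The quasi-likelihood test without the replicate block was tried on simulated data.

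Coordinates, exon lengths and sequences came from GENCODE vM1 and the NCBIM37 genome, in which all 37310 gene identifiers were found. Recoding sites were placed by script at known residues of the annotated proteins. The genes and lists were chosen with earlier results of these data known. Genes were named if they were among the 10, in their families, deaminases, or the gene nearest to a call in each list. Some results, among them the Flna and Gabra3 family shares, are not reported here. Kcnab1, Kcnab2, Ttr, Rgs5, Col1a2 and Col3a1 were named after their values were seen. Symbols not matched were Rflna and Rflnb (present as Fam101a and Fam101b), Hbb-b1, Hbb-b2 and Lhb.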

Additional observations from a re-analysis of the deposited data

How the results depend on the processing

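Over 15 alternative settings, 0 of the 10 recoded transcripts were called, and their lowest adjusted p was 0.0702, for Grik2 with the replicate block. All 10 kept their direction under the other scalings, filters, tests and the replicate block. Direction turned on a single library for 3 genes: omissions gave -0.085 to 0.0036 for Cyfip2, -0.057 to 0.035 for Flna and -0.0075 to 0.062 for Gabra3, with 0.0016 to 0.039 for Gria3, 0.022 to 0.08 for Gria4, -0.16 to -0.0050 for Htr2c and 0.12 to 0.20 for Grik2. The number of recoded transcripts whose genotypes did not overlap went from 1 on column totals to 4 with TMM scaling. Over all tested genes, 69 calls became 139 with the likelihood ratio test, 376 without a filter, 110 with filterByExpr, 158 with the replicate block and 42 to 113 with 1 library left out. Calls among the 86 related genes went from 0 to 1 with DESeq2, the likelihood ratio test, filterByExpr and the replicate block (Kcnab3 in each), to 2 without a filter (Kcnab3 and Nnat) and to 0 to 2 with 1 library left out. The cause was not tested. The differences of the 9 family shares moved by less than 1 SD, pooled over both genotypes, in raw counts without exon length. Leaving out 1 of 3 libraries cannot move a difference by 1 such SD. The block leaves the difference itself unchanged, so neither alternative could fail this measure. With 1 library left out, 4 differences turned sign. They ranged between -1.94 and 1.12 percentage points for Htr2c, -0.79 and 0.07 for Cyfip2 and -0.35 and 0.27 for Gria4. The other is not reported here. With 3 libraries per genotype, an exact permutation test cannot give a p below 0.1.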
